A study of Homo sapiens with 2 samples.

Results

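The transcripts described here come from 45 human genes of DNA damage repair, listed by symbol for their roles in the pathways. All 45 were found among the 63677 gene IDs of the count tables. RNA sequencing was done on MDA-MB-231 cells, an established human breast cancer cell line that lacks the oestrogen receptor. The study holds 2 libraries, 1 of control cells and 1 of cells treated with CCE, an extract of the plant Carpesium cernuum. The protocol text gives 1 µg/mL and 24 h and is attached to both libraries, so the groups were read from each library's treatment label, and the vehicle of the control, if any, is not known here. Because each group is a single library, differences have no replicate check and are given without p-values.

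Cells repair DNA by several routes, and each gene is placed below in a single role. Double-strand breaks are rejoined directly by non-homologous end joining or copied from the sister chromatid by homologous recombination, in which BRCA1, PALB2 and BRCA2 act together on resected ends. The Fanconi anaemia pathway unhooks crosslinks between the strands, excision repair removes damaged bases and bulky lesions, mismatch repair corrects replication errors, and the kinases ATM and ATR signal damage to the cell cycle. Many genes of recombination and of the Fanconi pathway are transcribed mostly in S phase.

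Gene counts came to 5633569 in the control and 34884501 in CCE, a ratio of 6.19, so the control library set the precision of every ratio. Levels are given as CPM, the count of a gene relative to all gene counts of its library, after TMM scaling, a method that equalises the bulk of genes between libraries. A single count was worth 0.180 CPM for control and 0.0283 CPM for CCE. Ratios are CCE over control on the log2 scale, each with an exact 95% Clopper-Pearson counting interval in parentheses. The intervals treat every count as independent, so copies made by PCR, which are not independent molecules, would make them too narrow. These intervals describe counting error alone and say nothing of variation between cultures. In a bulk library, fewer cells expressing a gene and less RNA per cell cannot be told apart. Markers of the line were abundant, with VIM at 3739 and 1801 CPM in control and CCE. Of 6 luminal breast markers, ESR1 and FOXA1 had 0 counts in both, CDH1 had 0 and 1, and PGR had 0 and 6. The others were not absent. GATA3 had 10 counts in control and 66 in CCE, and EPCAM had 56 and 265, each with a mean of at least 1 CPM. The immune marker PTPRC had 2 and 11 counts and the stromal markers DCN and LUM had at most 6. All 5 markers expected to be high had ratios below 0, from -0.20 for EGFR to -1.10 for CAV1.

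All 45 repair genes passed the filter of a mean of at least 1 CPM, with means from 5.02 to 375 CPM. Control counts ran from 33 for RAD51B to 2099 for XRCC6 with a median of 153, and CCE counts from 145 to 13181 with a median of 918. The median log2 ratio of the 45 genes was -0.02, with 22 genes above 0 and 23 below, beside a median of 0.05 over 11637 measured protein-coding genes, whose quartiles at -0.29 and 0.36. To be counted as higher or lower, a gene had to differ by at least 1.5-fold with an interval that left out equality. By that rule PALB2, RAD50 and FANCM were higher, 6.67% of the genes, beside 11.5% of all measured protein-coding genes. XRCC2, FANCE, FANCG and XRCC1 were lower, 8.89% of the genes, beside 10.9% of protein-coding genes. At 2-fold, PALB2 alone was higher (3.26% of protein-coding genes) and XRCC1 alone was lower (4.33%). By counts scaled with TMM, neither share of the 45 repair genes exceeded that of protein-coding genes. This did not hold throughout by the deposited FPKM values or among genes without overlaps, as given below. For 27 genes the whole interval lay within 1.5-fold of equality. Another 6 had intervals that included 1 and reached past 1.5-fold, so that neither equality nor a difference of that size can be set aside for them.

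**Figure D1:**
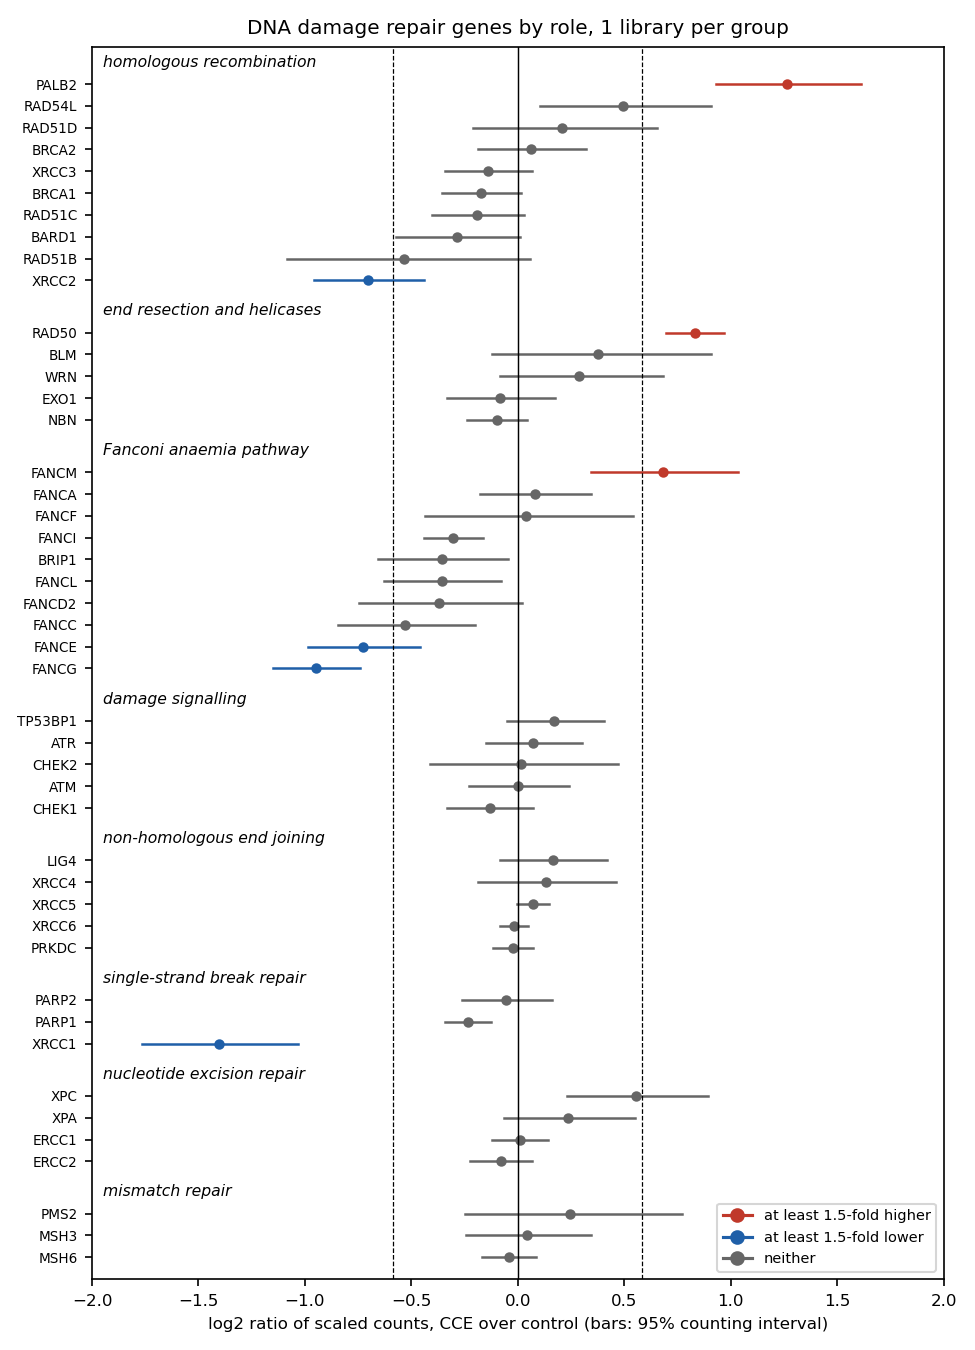
Log2 ratio, CCE over control, of scaled counts (x axis) for the 45 repair genes grouped by role; points are single ratios, bars the 95% counting intervals, and dashed lines mark 1.5-fold. PALB2, at 1.26, and XRCC1, at -1.41, lie farthest from 0, and all 5 genes of damage signalling and all 5 of end joining lie between the dashed lines.

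The stretches of promoter just before the start of PALB2, RAD50, XRCC1 and XRCC2 are shown because these 4 were among the 7 genes past 1.5-fold and carried a match to an ETS or NRF1 motif in the part shown. Each is the 140 bases before the start in RefSeq, build GRCh38.p14, read 5′ to 3′ on the gene's own strand. They lie at chr16:23641311-23641450 (minus strand), chr5:132556837-132556976 (plus), chr19:43575528-43575667 (minus) and chr7:152676142-152676281 (minus). Capitals mark a match on either strand to CCGGAAGT, recognised by ETS factors, in RAD50, and to GCGCANGCG, recognised by NRF1, in the other 3.
PALB2: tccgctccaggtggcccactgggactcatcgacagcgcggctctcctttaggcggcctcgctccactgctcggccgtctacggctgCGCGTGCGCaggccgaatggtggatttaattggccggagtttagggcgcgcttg
RAD50: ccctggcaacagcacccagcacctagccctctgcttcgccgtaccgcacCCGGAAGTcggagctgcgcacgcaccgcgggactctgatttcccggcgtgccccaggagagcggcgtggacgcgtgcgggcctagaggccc
XRCC1: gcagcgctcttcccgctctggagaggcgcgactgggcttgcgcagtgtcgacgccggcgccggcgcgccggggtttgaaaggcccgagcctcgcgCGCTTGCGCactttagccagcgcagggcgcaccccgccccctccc
XRCC2: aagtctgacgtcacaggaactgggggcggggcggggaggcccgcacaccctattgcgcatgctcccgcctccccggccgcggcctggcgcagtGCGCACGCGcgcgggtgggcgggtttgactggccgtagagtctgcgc
Counted from the start, the NRF1 match lay at -54 in PALB2, -45 in XRCC1 and -47 in XRCC2, and the ETS match at -91 in RAD50. Farther out, PALB2 had an ETS match at -161 and RAD50 another at -155. Thus the same motif stood before a gene that was higher and before 2 that were lower. FANCE, FANCG and FANCM, the other 3 genes past 1.5-fold, held no ETS or NRF1 match in the 250 bases searched.

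Across the repair genes, 40 of 45 had an entry in the promoter table, with 60 promoters in all because some genes have several starts. The NRF1 motif stood in 10 of these 60, or 16.7%, against 6.56% of all 35116 promoters searched over the same 250 bases. The ETS motif stood in 8.33% against 3.42%. Any of the E2F motifs TTTCCCGC, TTTGGCGC, TTTCGCGC and TTTGCCGC, bound by factors that drive S-phase genes, stood in 10.0% against 2.79%. These were 6 promoters of 5 genes. By gene, a match stood in 1 of the 12 with an entry that are known to peak in S phase and in 4 of the 28 others. SP1 boxes (GGGCGG) stood in 66.7% against 42.6% and CCAAT boxes (CCAAT) in 43.3% against 32.0%. The cell cycle element TTTGAA (8.33% against 13.3%) and the antioxidant response element TGACNNNGC (8.33% against 10.9%) were no more frequent than in all promoters. All motifs were searched on both strands, promoters of one gene can overlap, and a match is a description of the letters only.

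In homologous recombination, 1 of 10 genes was higher and 1 lower, with a median ratio of -0.16. For this and every later count by role or list, the shares of protein-coding genes were 11.5% higher and 10.9% lower. On the log2(FPKM + 1) scale, used where stated, those shares were 21.5% and 25.8%. PALB2, which bridges BRCA1 and BRCA2, lies at chr16:23614481-23652642 on GRCh37. Control cells gave 78 counts and CCE cells 1189, or 14.0 and 33.6 CPM, a ratio of 1.26 (0.93 to 1.61) and 2.40-fold higher. An antisense lncRNA that shares 86 bases with it had 2 and 77 counts. By counts, the partners of PALB2 stayed within 1.5-fold. BRCA1, the ubiquitin ligase that starts the pathway, stood at 50.0 and 44.3 CPM (ratio -0.17, -0.36 to 0.02). BARD1, the subunit that pairs with BRCA1, stood at 21.0 and 17.3 CPM (-0.29, -0.57 to 0.01). BRCA2, a mediator of strand exchange, stood at 26.8 and 28.0 CPM with a ratio of 0.06. Of these 4 genes that act in 1 chain, PALB2 was thus the single one past 1.5-fold by counts. On the log2(FPKM + 1) scale BRCA1 (1.59) and BARD1 (1.69) were also at least 1.5-fold higher, and BRCA2 had -0.10.

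XRCC2 belongs with RAD51B, RAD51C, RAD51D and XRCC3 to a family of related proteins that assist strand exchange, and lies at chr7:152341861-152373278. It stood at 28.8 CPM in control and 17.7 CPM in CCE, on 160 and 625 counts, a ratio of -0.70 (-0.96 to -0.44). The other members of the family were nearer to equality. RAD51C stood at 37.6 and 32.9 CPM (-0.19), RAD51D at 9.35 and 10.8 CPM (0.21) and XRCC3 at 41.4 and 37.5 CPM (-0.14). RAD51B had the fewest counts, 33 and 145, and its ratio of -0.53 had an interval from -1.09 to 0.06. RAD54L, a motor protein of strand exchange, stood at 10.6 and 14.9 CPM with a ratio of 0.49 (0.10 to 0.91), under the threshold. XRCC3 shares 5756 bases of exon with KLC1 on the opposite strand, and whether counting used strand is not known here, so reads of such pairs cannot be told apart; 25 of the 45 genes have an exonic overlap of this kind.

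Among the genes of end resection and the helicases, 1 of 5 was higher and none lower, with a median of 0.29 by counts. That median was 0.085 after GC centring and -0.050 on the log2(FPKM + 1) scale. On the latter, 2 of the 5 were at least 1.5-fold higher and 2 lower, beside 21.5% and 25.8% of protein-coding genes. RAD50, the coiled-coil ATPase of the complex that first grips a broken end, lies at chr5:131891711-131982041 and had 480 and 5427 counts. That is 86.3 CPM in control and 154 CPM in CCE, a ratio of 0.83 (0.70 to 0.97) and 1.78-fold higher, the narrowest interval of the 7 genes. By counts, the other subunits of the complex did not pass 1.5-fold. On the log2(FPKM + 1) scale both passed it, NBN at -0.64 and MRE11 at 0.65. NBN, which recruits ATM, stood at 88.1 and 82.3 CPM (-0.10). MRE11, the nuclease and not among the 45, stood at 20.1 and 24.6 CPM with a ratio of 0.29. EXO1, the exonuclease of long resection, stood at 27.5 and 26.0 CPM (-0.08). The RecQ helicases BLM and WRN, which unwind joint molecules and stalled forks, had ratios of 0.38 (-0.12 to 0.91) and 0.29 on 37 and 66 control counts. RAD50 overlaps the lncRNA TH2LCRR over 243 bases, which had 69 and 479 counts. NBN overlaps OSGIN2 over 827 bases; that neighbour stood at 89.9 and 229 CPM, a ratio of 1.35.

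The Fanconi anaemia pathway had a median of -0.36, with 7 of 10 ratios below 0, the lowest of the 8 roles by counts. By FPKM its median was 0.078 and that of mismatch repair was the lowest, -1.66. FANCG (chr9:35073832-35080001) and FANCE (chr6:35420115-35434881), both subunits of the core ubiquitin ligase, were lower. FANCG stood at 46.4 CPM in control and 24.0 CPM in CCE, on 258 and 850 counts, a ratio of -0.95 (-1.15 to -0.74). FANCE stood at 27.5 and 16.6 CPM, a ratio of -0.73 (-0.98 to -0.46). The rest of the core was mixed. FANCC, which binds FANCE, stood at 18.2 and 12.6 CPM (-0.53, -0.84 to -0.20), and the catalytic subunit FANCL at 24.1 and 18.8 CPM (-0.36). FANCA, the partner of FANCG, had a ratio of 0.08 and FANCF, an adaptor within the core, 0.04. FANCM (chr14:45605133-45670093), the translocase that anchors the core to DNA, was higher, at 14.0 and 22.5 CPM on 78 and 794 counts, a ratio of 0.68 (0.34 to 1.03). FANCM was thus 1.60-fold higher while 2 other subunits of the complex were lower. Downstream of the core, FANCI, which is ubiquitinated together with FANCD2, stood at 90.5 and 73.3 CPM (-0.30, -0.44 to -0.16). FANCD2 had a ratio of -0.37 (-0.75 to 0.02), and BRIP1, a helicase that binds BRCA1, -0.36 (-0.65 to -0.05). FANCD2 has near-identical pseudogene copies, so its counts are uncertain.

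By counts, no gene of damage signalling was past 1.5-fold in either direction, and the median was 0.02. On the log2(FPKM + 1) scale the median was -0.24, and ATR (1.08) was at least 1.5-fold higher. ATM, the kinase that answers double-strand breaks, stood at 31.7 CPM in both libraries, with a ratio of 0.00. ATR, the kinase of stalled forks, stood at 33.8 and 35.5 CPM (0.07). Their effector kinases CHEK1 and CHEK2 had ratios of -0.13 and 0.02, and TP53BP1, which shields ends from resection, 0.17. All 5 ratios by counts lay between -0.13 and 0.17. CHEK2 also has near-identical copies and rests on 51 control counts.

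Likewise, no gene of non-homologous end joining passed 1.5-fold by counts, and the median was 0.07. On the log2(FPKM + 1) scale the median was -0.48, and PRKDC (-0.68) and LIG4 (-2.55) were at least 1.5-fold lower. This role holds the best-counted members. XRCC6 and XRCC5, the Ku subunits that cap broken ends, stood at 377 and 373 CPM (-0.02, -0.08 to 0.05) and at 297 and 313 CPM (0.07). PRKDC, the kinase that Ku recruits, stood at 198 and 195 CPM (-0.02, -0.12 to 0.07). XRCC4 and LIG4, the scaffold and the ligase that seal the break, had ratios of 0.13 and 0.16. For Ku and PRKDC the intervals are the narrowest of the 45, and all lie well within 1.5-fold. Per kilobase of merged exons, XRCC6 (116 and 115 CPM per kb) and XRCC5 (54.4 and 57.2) were the most abundant of the 45, and ERCC1 (17.9 and 18.0) came next. The median member stood at 3.53 and 3.57 CPM per kb.

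**Figure D2:**
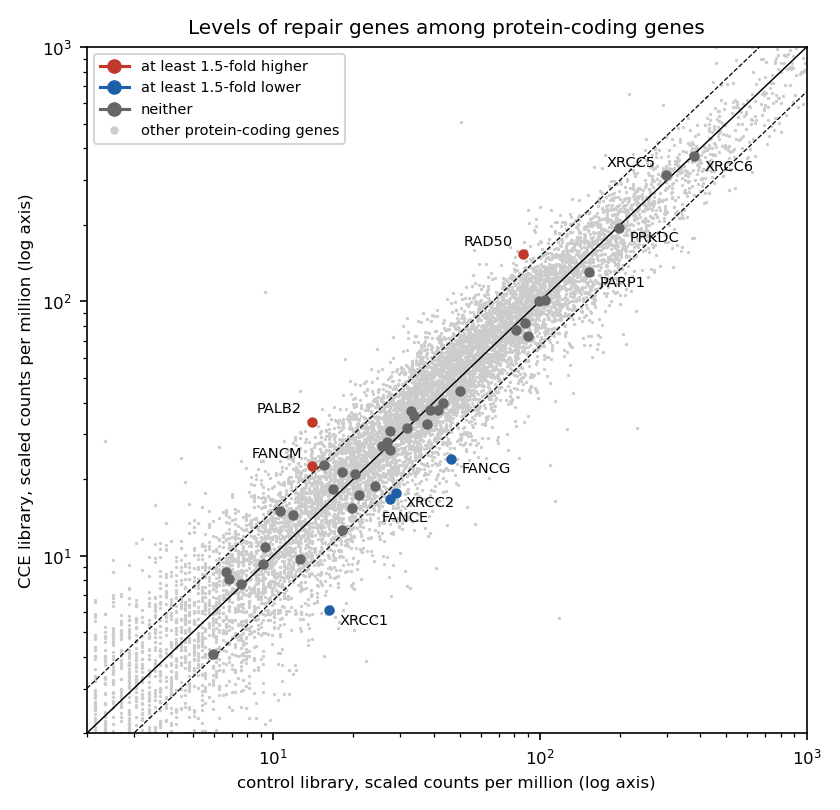
Level in the control (x axis) and the CCE library (y axis) in scaled CPM, both on log axes that start at 2 CPM, for the repair genes (large points) among measured protein-coding genes (small grey points); dashed lines mark 1.5-fold. The Ku genes XRCC5 and XRCC6 and PRKDC sit on the diagonal at the top, and XRCC1 lies farthest below it.

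In single-strand break repair, XRCC1, the scaffold that gathers the ligase and polymerase at a nick, had the lowest ratio of all 45 genes. It lies at chr19:44047463-44084625 and had 90 control and 216 CCE counts, or 16.2 and 6.11 CPM. The ratio was -1.41 (-1.77 to -1.03), 2.65 times lower. PARP1, which senses nicks and recruits XRCC1, stood at 153 and 130 CPM (-0.23, -0.34 to -0.13), and PARP2, its relative, at 38.8 and 37.4 CPM (-0.05). The sensors were thus within 1.5-fold while the scaffold was not. XRCC1 shares 482 bases, 17.6% of its exons, with an antisense lncRNA that had 12 and 11 counts (2.16 and 0.311 CPM).

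Of the 4 genes of nucleotide excision repair, none passed the rule by counts, and the median was 0.12. XPC, the sensor of distorted helices, came closest, at 15.5 and 22.7 CPM, a ratio of 0.55 (0.23 to 0.89) and 1.47-fold. XPA, which verifies the lesion, had a ratio of 0.23, ERCC1, part of a structure-specific nuclease, 0.01, and ERCC2, a helicase of TFIIH, -0.08. On the log2(FPKM + 1) scale ERCC1 (0.62) was at least 1.5-fold higher and ERCC2 (-0.82) at least 1.5-fold lower. By counts, the mismatch repair genes also stayed within 1.5-fold. MSH6 and MSH3, the alternative partners in mismatch recognition, had ratios of -0.04 and 0.04 at 104 and 101 CPM and at 20.3 and 21.0 CPM. PMS2, an endonuclease subunit with many pseudogene copies and therefore uncertain counts, had 0.24 on 38 control counts. On the log2(FPKM + 1) scale all 3 passed 1.5-fold, with MSH6 at -2.96, MSH3 at -1.66 and PMS2 at 1.71. By counts FANCM, at 1.60-fold, was the higher gene nearest the threshold, with XPC just under it. On the lower side XRCC2, at 1.63 times, stood just inside, and RAD51B and FANCC, at 1.45 and 1.44 times, just outside.

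The 13 repair genes known to peak in S phase had a median of -0.13, with none higher and XRCC2 lower, and the 32 others had a median of 0.01, with 3 higher and 3 lower. A separate list of S-phase replication genes, such as helicase and polymerase subunits, differed more. All 19 of its measured genes had ratios below 0, 12 were lower by the same rule, none was higher, and the median was -0.67. TYMS, which makes thymidylate, stood at 172 and 63.4 CPM (-1.44), GINS1, part of the replicative helicase, at -1.10, and MCM7, a subunit of that helicase, at -1.02. MCM3, the most abundant, stood at 322 and 223 CPM (-0.53). The part of cell cycle phase in the repair genes' ratios was not tested. A list of p53 targets and damage-induced genes had 2 of 14 higher and 2 lower, with a median of -0.04. That is 14.3% each, beside 11.5% and 10.9% of protein-coding genes. In this list SESN1, a stress sensor, had 1.34, GADD45A and BBC3, which act in arrest and cell death, -0.81 and -0.80, and the most abundant, the cell cycle inhibitor CDKN1A, 0.48.

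Beyond the 45, 99 of 102 other repair genes were measured, with a median of 0.01. Of these, 10 were higher and 10 lower, 10.1% each, beside 11.5% and 10.9% of protein-coding genes. This split moved with the scaling, to 7 higher and 14 lower by upper quartile and to 12 higher and 7 lower by total counts. Protein-coding shares moved the same way, to 9.82% higher and 12.3% lower and to 13.1% and 9.91%. Directions here and in the next paragraph are by counts, and named genes that differed by FPKM are listed below. Other recombination genes had none higher and 1 of 21 lower. That gene was RAD51AP1, a cofactor of strand exchange, at 37.2 and 22.7 CPM (-0.72), while RMI2, of the BLM complex, had -0.48, and RPA1, which coats single strands, 0.04. In the wider Fanconi pathway 1 of 10 was higher, the nuclease FAN1 (0.87), and 2 were lower, FAAP100 (-0.63) and UBE2T (-0.60), the latter being the E2 enzyme that works with FANCL. USP1, which removes the ubiquitin, was the most abundant at 119 and 97.9 CPM (-0.28). Other signalling genes had 2 of 20 higher and 2 lower, among them the histone variant H2AX at 157 and 82.9 CPM (-0.92), the kinase WEE1 (-0.71) and the clamp subunit HUS1 (0.65).

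Other end-joining genes had 2 of 7 higher and none lower, beside 11.5% and 10.9% of protein-coding genes. Their median was 0.51 by counts and -0.056 by FPKM. TDP2, which frees ends from trapped topoisomerase, stood at 59.5 and 101 CPM (0.76), APLF, a histone-binding adaptor, at 0.71 and the nuclease DCLRE1C at 0.53. In base excision and single-strand break repair 3 of 18 were higher and 3 lower. LIG1, the replicative ligase, stood at 34.2 and 17.4 CPM (-0.97), APTX, which clears stalled ligation products and binds XRCC1, at 44.2 and 77.0 CPM (0.80), and TDP1 had -0.72. The endonuclease APEX1 was the most abundant at 179 and 212 CPM (0.25). Other excision repair genes had 1 of 15 higher, the nuclease ERCC5 (0.85), and 1 lower, the damage sensor DDB2, at 19.6 and 7.67 CPM (-1.35). GTF2H1, a core subunit of TFIIH, had 0.58 and DDB1, the most abundant, 0.20. In translesion synthesis and direct reversal 1 of 8 was higher, the polymerase subunit REV3L (0.93), and 1 lower, POLH (-0.62), while POLK had 0.51.

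**Figure D3:**
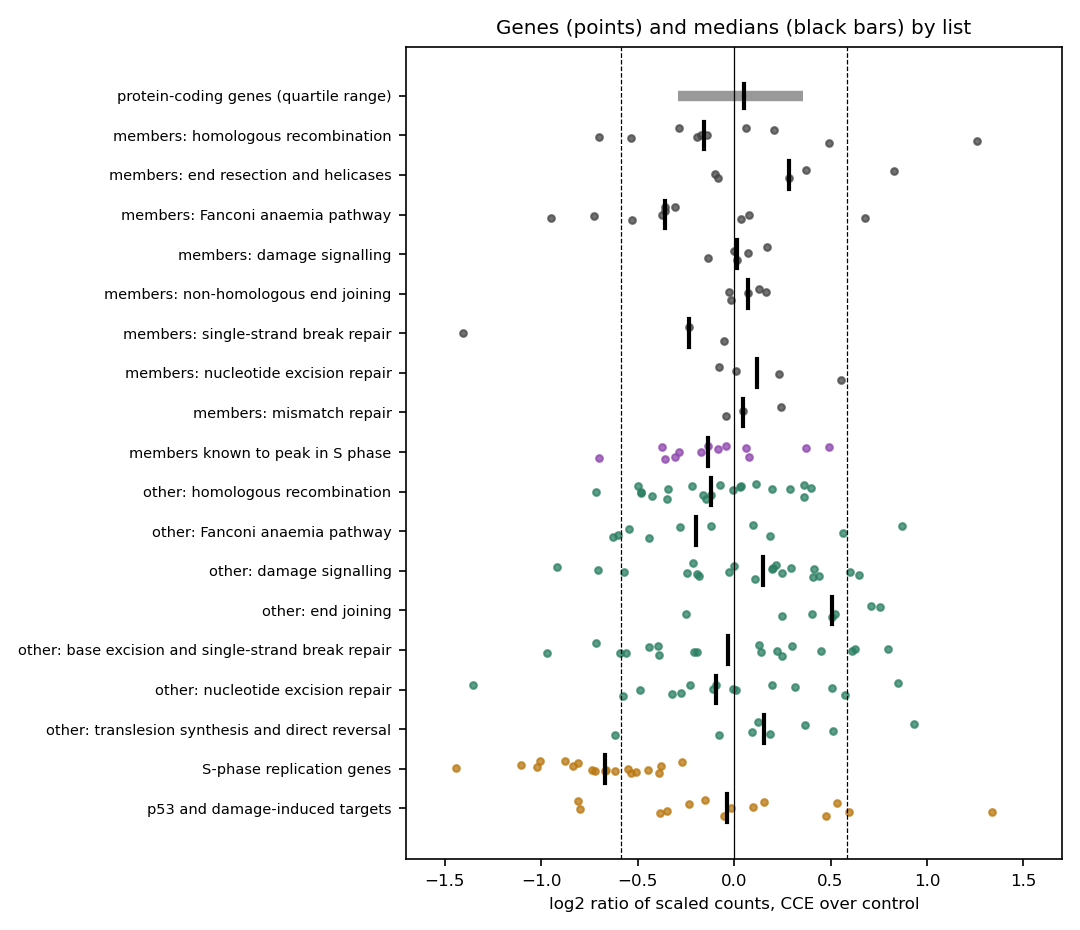
Log2 ratio, CCE over control, of scaled counts (x axis) for each measured gene of each list, with black bars at the medians, dashed lines at 1.5-fold and a grey bar between the quartiles of protein-coding genes. All 19 S-phase replication genes lie below 0, with a median of -0.67, while the medians of the 8 roles of the 45 repair genes (rows marked members) lie between -0.36 and 0.29.

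The authors' FPKM values, a length-normalised measure deposited beside the counts and summed here per gene, gave different ratios for many of the repair genes. On the log2(FPKM + 1) scale 23 of 45 had the same sign as by counts, against 59.7% of protein-coding genes, and Spearman's rho between both measures was 0.122 across the 45 genes, which share the 2 libraries. Of the 7 genes past 1.5-fold, PALB2 (2.01), FANCM (0.64), FANCE (-0.39) and XRCC1 (-0.69) kept their sign. RAD50 had -0.05, with 13.8 and 13.3 FPKM, XRCC2 had 1.69, with 0 and 2.23 FPKM, and FANCG had 0.50, with 3.69 and 5.61 FPKM. The direction of RAD50, XRCC2 and FANCG by counts was thus not that by FPKM. Among the other repair genes named above, RAD51AP1 (1.89), FAN1 (-0.24), DCLRE1C (-0.25), POLH (1.98), RPA1 (-0.20) and APEX1 (-0.09) also changed sign. The rest of those named kept theirs. The median of the other end-joining genes was -0.056 by FPKM. MSH6, at 10.6 and 0.493 FPKM, and LIG4, at 4.86 and 0 FPKM, had 580 and 153 control counts and 3579 and 1089 CCE counts, so their low FPKM was not matched by low counts. Medians on this scale also turned in sign for recombination (0.46), signalling (-0.24), end joining (-0.48) and the 13 genes known to peak in S phase (0.58), while the S-phase replication genes stayed below 0 (-1.03). No depth can be given for the FPKM values.

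**Figure D4:**
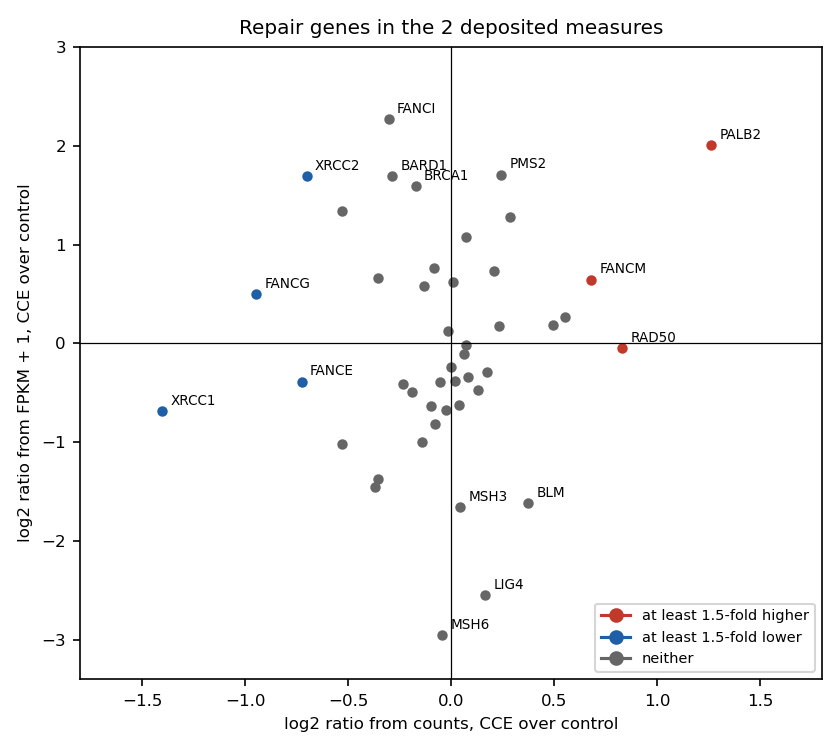
Log2 ratio from counts (x axis) against log2 ratio from FPKM + 1 (y axis), CCE over control, for the 45 repair genes. PALB2 is high and XRCC1 low on both axes, whereas XRCC2 and FANCG are low by counts and high by FPKM.

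Base composition moved with the ratios over all protein-coding genes. The running median was 0.14 at an exonic GC content of 40% and -0.11 at 60%, and rho between ratio and GC was -0.231 over protein-coding genes and -0.108 over the 45. The repair genes had a median GC content of 43.0%, against 47.4%. With the running median removed, FANCM, at 36.6% GC, had a ratio of 0.49 and no longer passed 1.5-fold, and RAD51B, at -0.69, passed it on the lower side. PALB2 kept 1.18, RAD50 0.67, FANCG -0.92 and XRCC1 -1.33.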

How the data were processed

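Groups were taken from the treatment label of each library. The authors deposited raw counts per Ensembl gene and FPKM values, the latter summed here per gene. The aligner HISAT2 and the build hg19/GRCh37 appear, without further detail, per the submitters' processing notes. Not given in the sources used here are the counting program and strand setting, the annotation and the FPKM program. The 5 rows that name no gene (62.9% of control and 66.8% of CCE records) were left out. Symbols and GRCh37 coordinates came from GENCODE 44 lifted to GRCh37, which held 55665 of 63677 IDs, and promoters from RefSeq GRCh38.p14. Counts were scaled with TMM factors (0.987 and 1.01; edgeR 4.0.16, R 4.3.3). Intervals used scipy 1.17.1 (Python 3.11.15, numpy 2.4.6, pandas 2.3.3). The procedure was tested on data simulated with counting error alone, so the test does not bear on variation between cultures. Genes needed a mean of at least 1 CPM and calls a 1.5-fold ratio with an interval excluding 1. Alternatives were other scalings (DESeq2 1.42.0 among them), FPKM with pseudocounts of 1 and 0.1, other filters and thresholds, genes without overlaps, GC centring and summed counts. Named genes were the 45, up to 3 of each other list by absolute ratio with an interval excluding 1, its most abundant gene, and overlapping genes; a gene that meets this rule is not reported here. Members and lists were chosen with earlier results of these data known.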

Additional observations from a re-analysis of the deposited data

How the results depend on the processing

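No paired analysis was possible because each group has 1 library. The same 7 genes passed 1.5-fold under upper-quartile and DESeq2 scaling, totals without mitochondrial genes, no filter and a mean of 5 CPM, and scaling by total counts added XPC. Every one of the 45 ratios stayed within its interval under the 4 other scalings, while the protein-coding shares moved to 13.1% higher and 9.91% lower by totals and to 9.82% higher and 12.3% lower by upper quartile. By FPKM with pseudocounts of 1 and 0.1, 14 and 16 repair genes were higher and 13 and 13 lower, beside 21.5% and 26.7% higher and 25.8% and 29.4% lower of protein-coding genes. The share higher among the 45 thus exceeded that of protein-coding genes at both pseudocounts, and the share lower only at a pseudocount of 1. RAD50 (-0.050 and -0.054), XRCC2 (1.69 and 4.54) and FANCG (0.50 and 0.59) changed sign by FPKM, and the cause was not tested. At 2-fold 1 gene was higher and 1 lower, and among the 19 genes that overlap no other gene, which leave out PALB2, RAD50 and XRCC1, 1 was higher (FANCM) and 3 lower, beside 11.1% and 11.8% of protein-coding genes without overlaps. Medians by FPKM with 0.1 were -0.15 for all 45, 0.55 for recombination and 0.094 for the Fanconi pathway. With 1 and 0.1 they were -0.050 and -0.054 for end resection and helicases, -0.24 and -0.35 for signalling, -0.48 and -0.53 for end joining and -1.66 and -2.55 for mismatch repair. GC centring gave -0.051 for end joining and -0.13 for mismatch repair. Of the other repair genes, 22 and 24 were higher and 28 and 30 lower by FPKM, with a median of -0.16 at 0.1. Among the 41 of them without overlaps 4 were higher and 6 lower, GC centring left 5 higher, and at 2-fold 0 were higher and 1 lower. For the S-phase replication genes the FPKM medians were -1.03 and -1.06, 2 were higher at 0.1, and 4 were lower at 2-fold. An alternative chosen after seeing the data, length of the canonical transcript, kept XRCC6 (178 and 176 CPM per kb) and XRCC5 (88.0 and 92.5) first, with PARP1 (38.5 and 32.7) next. Depth limits the 14 genes with fewer than 100 control counts most.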

Other observations

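Of the other repair genes, 3 were not measured; they are named here after their values were seen. MGMT, which reverses alkylation of guanine, had 0 counts in both libraries, which allows up to 0.540 CPM (control) and 0.0849 CPM (CCE), and was listed at 0 FPKM in both. The end-joining factor NHEJ1 also had 0 counts in both, but the deposited FPKM values were 4.26 and 4.07. GTF2H4, a subunit of TFIIH, had 0 and 19 counts beside 15.5 and 12.6 FPKM. For NHEJ1 and GTF2H4 the low counts therefore set no limit on expression.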
